A study of Mus musculus with 40 samples.

Results

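Chemokine ligands are the small secreted or membrane-bound proteins that guide leukocytes through tissue. Their genes were taken as the rows of the deposited count table whose Ensembl identifier maps to a symbol made of Ccl, Cxcl, Cx3cl or Xcl and a number. This rule found 37 of the 21500 genes in the table, namely 23 of the CC class, 12 of the CXC class, 1 of the CX3C class and 1 of the XC class. With expression set at a mean of at least 0.5 CPM (counts scaled to library size, with TMM factors between mice) over all 20 mice, 23 ligands were expressed and 14 were not. Liver RNA came from 20 male C57BL/6J mice of 20 weeks of age, in 2 groups of 10 separate animals. The BLT1i mice (numbers 71 to 80) and the CDAA-HFD mice (numbers 31 to 40) all ate CDAA-HFD, a choline-deficient diet of defined amino acids with 60% of its energy from fat and 0.1% methionine, from 8 weeks of age. After 4 weeks the BLT1i mice also received the compound BLT1i at 90 mg/kg for 8 weeks, while the CDAA-HFD mice stayed on the diet alone. The labels neither expand BLT1 nor explain the code L_286 in the titles of the BLT1i samples, and no mice on a control diet were analysed here, so every comparison is between groups with the same fibrogenic diet.

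A chemokine binds a G protein-coupled receptor on a leukocyte and directs its movement along a gradient, which is often held on endothelial surfaces and matrix. Inflammatory members are induced by cytokines and microbial signals, whereas homeostatic members are made steadily and place cells within a tissue. In injured liver, Ccl2 is known for bringing in monocytes, Cxcl1 and Cxcl2 for bringing in neutrophils, and Cxcl9 and Cxcl10 for bringing in activated T cells. BLT1, as the name is generally used, is the leukotriene B4 receptor encoded by Ltb4r1, a lipid chemoattractant receptor of neutrophils and other leukocytes.

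Total counts per mouse were 18467060 to 26078285 in BLT1i mice and 20994073 to 27456678 in CDAA-HFD mice. Alb, the albumin gene of hepatocytes, had a mean of 38589 ± 2839 CPM in BLT1i livers and 36411 ± 1927 CPM in CDAA-HFD livers (SD, n = 10 each). The mouse numbers, and the numbers after the letter S in the titles, run in a separate block for each group, so an effect of that order and an effect of BLT1i cannot be told apart. These are bulk livers, in which fewer cells of a type and less RNA per cell cannot be told apart.

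Chemokine ligand RNA was dominated by a few genes. The 37 ligands made up 0.0737% to 0.0912% of the counts of a BLT1i mouse and 0.0792% to 0.0978% of those of a CDAA-HFD mouse. The mean share was 0.0817 ± 0.0060% in BLT1i mice and 0.0880 ± 0.0058% in CDAA-HFD mice (SD, n = 10 each), a difference that was not tested. Of the ligand counts 50% were from Cxcl12, the stromal ligand of Cxcr4. The first 5 genes by CPM, namely Cxcl12, Ccl9, Ccl6, Cxcl16 and Cx3cl1, held 82.6%. Levels of different genes can be compared only per length, for which the authors' FPKM, deposited as whole numbers, were used. On that scale Cxcl12 averaged 146 over the 20 mice. It was followed by Ccl6 at 47.9, Ccl9 at 28.8, Cxcl16 at 24.9, Cxcl1 at 19.8, Ccl5 at 12 and Cxcl14 at 11.8. The other 16 expressed ligands had mean FPKM from 0.35 (Ccl24) to 10.1 (Cx3cl1). The order by length thus put Ccl6 above Ccl9, although Ccl9 had the higher CPM (100.3 against 74.5, mean of 20 mice). Of these FPKM values only whole numbers were deposited, so the low ones are coarse.

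**Figure D1:**
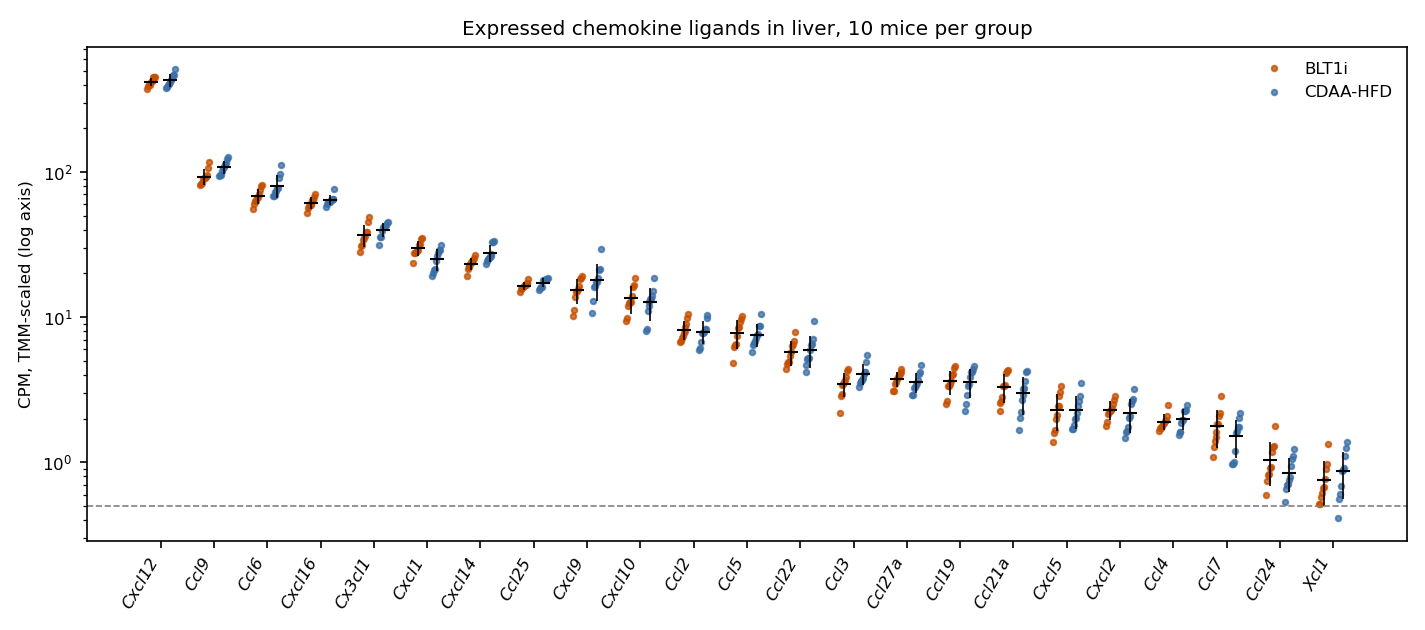
CPM (log axis) of the 23 expressed chemokine ligands, each point 1 mouse, with BLT1i mice (orange) left of CDAA-HFD mice (blue), black bars the mean ± SD of 10 mice and the dashed line at 0.5 CPM. Levels run from a mean of 424 CPM for Cxcl12 to 0.812 CPM for Xcl1, and within each gene the points of both groups overlap.

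The threshold of 0.5 CPM fell in a gap between Xcl1, the lymphotactin of T and NK cells, at 0.812 CPM, and Ccl28, a mucosal ligand, at 0.464 CPM. Next above Xcl1 was Ccl24, which attracts eosinophils, at 0.943 CPM. Next below Ccl28 was Cxcl13, which guides B cells, at 0.298 CPM. Below it, in falling order, came Ccl21b, Ccl17, Ccl20, Ccl11, Ccl8, Cxcl3, Ccl12, Ccl1 and Cxcl17. Cxcl15 had 1 count in all mice together. No count fell on Ccl26 or Ccl27b in 20 mice with 462918933 counts, which allows up to 0.00648 CPM (3 counts, counting error only). Ccl21a and Ccl21b, and likewise Ccl27a and Ccl27b, are near-identical copies whose reads can be split or dropped by the counting, so their values are uncertain. All 14 ligands under 0.5 CPM had a rounded FPKM of 0 in every mouse.

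BLT1i livers and CDAA-HFD livers differed little in chemokine ligand RNA. Of the 37 ligands, 24 had enough counts to be tested (the 23 expressed ones and Ccl28). None passed as higher in BLT1i livers and 1, Cxcl14, passed as lower (edgeR quasi-likelihood F-test over 13993 genes, Benjamini-Hochberg adjusted p of at most 0.05). Over all tested genes 3.65% passed as higher and 1.98% as lower, 5.63% in either direction, so the share of ligands that passed was near that of all genes. The split of all called genes depended on the scaling, with 511 higher and 277 lower here, 443 and 401 with upper-quartile scaling and 393 and 554 with library totals alone. At an unadjusted p under 0.05 there were 4 ligands (Cxcl14, Ccl9, Cxcl1 and Ccl6), against 19.7% of all genes. Of these Cxcl1 was the one with a positive change. DESeq2 passed 2 of the 24, Cxcl14 and Ccl9, and like limma-voom passed none as higher. The log2 fold changes were positive for 11 ligands and negative for 13, with a median of -0.039 against -0.0086 over all tested genes. All 24 were smaller than 0.3 in size, as were those of 94.8% of all tested genes. For 20 of the 23 expressed ligands the 95% interval excluded a change of 1.5-fold in either direction. The exceptions were Ccl7, Ccl24 and Xcl1, which had few counts.

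**Figure D2:**
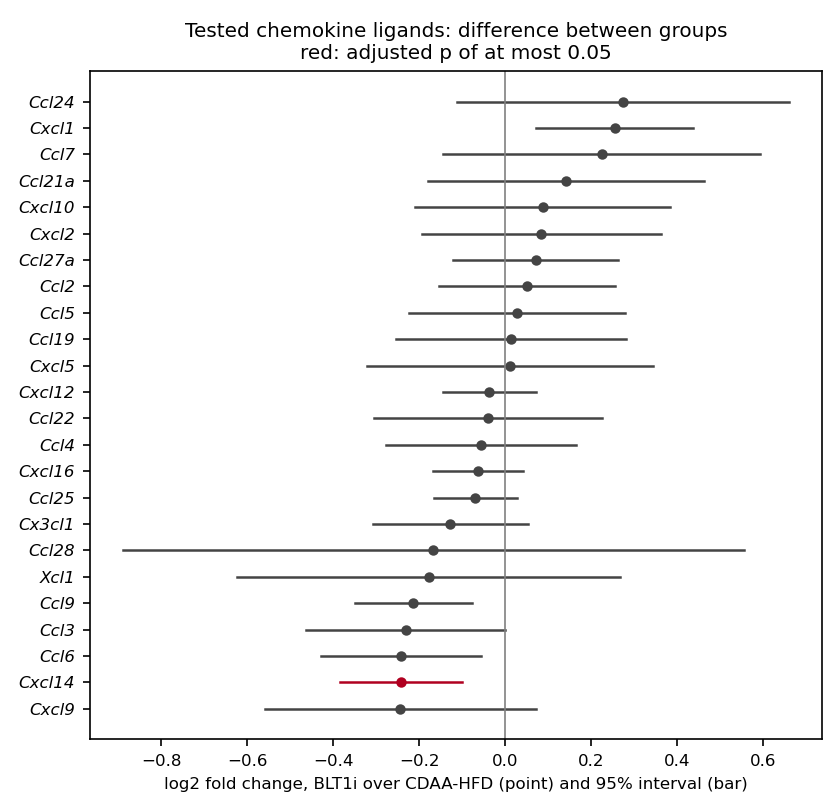
Log2 fold change (BLT1i over CDAA-HFD, points) with its 95% confidence interval (bars) of the 24 tested chemokine ligands, from edgeR on 10 mice per group, ordered by value. Cxcl14 (red, -0.24) is the ligand past the adjusted threshold, and the widest interval is that of Ccl28, at 0.464 CPM.

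Among the homeostatic CXC ligands, Cxcl14 fell. This ligand, made by epithelial cells and fibroblasts, is without an undisputed receptor. It had 19.2, 23.7 and 26.9 CPM in BLT1i mice and 23.1, 26.2 and 33.3 CPM in CDAA-HFD mice (lowest, median and highest). The groups overlapped, but 9 of 10 BLT1i mice lay below the median of the CDAA-HFD mice and 4 lay below all of them. Its mean of 23.4 ± 2.15 CPM in BLT1i livers against 27.7 ± 3.76 CPM in CDAA-HFD livers (SD, n = 10 each) was a log2 fold change of -0.24 ± 0.07 (SE; edgeR adjusted p = 0.036). The call was lost without any 1 of the BLT1i mice 71, 73, 76, 77 and 79 or of the CDAA-HFD mice 33, 36 and 37, with edgeR adjusted p between 0.0571 and 0.0769. Immediate early genes moved with the groups, and pan-macrophage markers also moved, by smaller amounts. Of 15 pan-macrophage markers 1 passed as higher (Mrc1) and 2 as lower (Itgam and Fcer1g), with a median log2 fold change of -0.12 and summed levels of 2513 to 3250 CPM in BLT1i mice and 2340 to 3293 CPM in CDAA-HFD mice. At an unadjusted edgeR p under 0.05 there were 9 of the 15, against 19.7% of all genes. With library totals alone 0 passed as higher and 4 as lower. Kupffer cell markers, the resident macrophage list, had a positive median log2 fold change of 0.24 over 9 tested genes, and none passed with edgeR. Among these 9 there were 5 at an unadjusted edgeR p under 0.05, such as Clec4f (0.69) and, in the other direction, C6 (-0.22). Of 17 immediate early genes 11 passed as higher, and their summed levels were 1624 to 2649 CPM in BLT1i mice and 836 to 1574 CPM in CDAA-HFD mice. With the macrophage score as a covariate the Cxcl14 log2 fold change was -0.18 (edgeR adjusted p = 0.268), and with the immediate early score, which itself differs between the groups, it was -0.22 (edgeR adjusted p = 0.553).

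The promoter of Cxcl14 is shown because it is the ligand that passed. It lies at chr13:56296502-56296801 on the minus strand of GRCm38.p6 (RefSeq, 250 bases before to 50 after the gene start; the counts were made on GRCm39), and is given 5′ to 3′ on the strand of the gene with a match to the interferon response element (GAAA, any 2 bases, then GAAA), searched on both strands, in capitals. This match is held by 3.43% of the 32817 promoters in the table. It is a match of letters and no measure of binding.
Cxcl14: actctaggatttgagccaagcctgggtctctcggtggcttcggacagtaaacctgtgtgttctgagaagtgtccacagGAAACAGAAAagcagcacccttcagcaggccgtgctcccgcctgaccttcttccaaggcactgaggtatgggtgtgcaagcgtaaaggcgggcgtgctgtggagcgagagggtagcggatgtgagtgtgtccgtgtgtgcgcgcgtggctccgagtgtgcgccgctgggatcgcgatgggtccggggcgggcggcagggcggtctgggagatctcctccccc

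Cxcl12, made by endothelial and stellate cells and the main anchor of Cxcr4-bearing cells, did not pass. It had 373.4, 422.9 and 453.9 CPM in BLT1i mice and 376.5, 423.5 and 508.7 CPM in CDAA-HFD mice (lowest, median and highest). The medians nearly coincided. The log2 fold change of -0.04 ± 0.05 (SE) had a 95% interval of -0.15 to 0.07 (edgeR adjusted p = 0.765).

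Ccl9 and Ccl6, the mouse CC ligands of Ccr1 made by macrophages and other myeloid cells, were next. Ccl9 had 81.0, 90.9 and 117.1 CPM in BLT1i mice and 93.1, 107.1 and 126.8 CPM in CDAA-HFD mice (lowest, median and highest), and 7 of 10 BLT1i mice lay below all CDAA-HFD mice. Its log2 fold change of -0.21 ± 0.07 (SE) narrowly missed the threshold (edgeR adjusted p = 0.0565). The call was made without BLT1i mouse 78 or 80 or without CDAA-HFD mouse 31, 35 or 38, with edgeR adjusted p as low as 0.0121, and also with library totals alone (0.0166), upper-quartile scaling (0.0347) and DESeq2 (0.0321). Ccl6 had 55.5, 66.7 and 81.3 CPM in BLT1i mice and 68.7, 75.4 and 112.1 CPM in CDAA-HFD mice (lowest, median and highest). Here 6 of 10 BLT1i mice lay below all CDAA-HFD mice, and the log2 fold change of -0.24 ± 0.09 (SE) did not pass (edgeR adjusted p = 0.123). With the macrophage score as a covariate the log2 fold changes were -0.10 ± 0.06 for Ccl9 and -0.06 ± 0.06 for Ccl6 (SE; edgeR adjusted p = 0.45 and 0.733).

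The neutrophil attractants Cxcl1, Cxcl2 and Cxcl5, which act through Cxcr2, did not pass. Cxcl1 had 23.7, 28.9 and 35.4 CPM in BLT1i mice and 19.1, 25.5 and 31.3 CPM in CDAA-HFD mice (lowest, median and highest). Of the BLT1i mice 9 of 10 lay above the median of the CDAA-HFD mice and 4 above all of them, with a log2 fold change of 0.26 ± 0.09 (SE; edgeR adjusted p = 0.0933). Without CDAA-HFD mouse 38 it passed (edgeR adjusted p = 0.0426), and with the immediate early score as a covariate the log2 fold change was -0.02. Cxcl2 averaged 2.3 ± 0.337 CPM in BLT1i livers and 2.17 ± 0.575 CPM in CDAA-HFD livers (SD, n = 10 each), and Cxcl5 2.29 ± 0.655 CPM in BLT1i livers and 2.29 ± 0.59 CPM in CDAA-HFD livers. Cxcl1, Cxcl2 and Cxcl3 share much of their sequence, so a part of their reads may be assigned among them. None of 9 tested neutrophil markers passed with edgeR, DESeq2 or limma-voom. An unadjusted edgeR p under 0.05 was held by 2 of the 9, against 19.7% of all genes. The summed levels of the neutrophil list were 21.5 to 36.2 CPM in BLT1i mice and 25.3 to 35.8 CPM in CDAA-HFD mice.

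The interferon-induced ligands Cxcl9 and Cxcl10, which attract Cxcr3-bearing T and NK cells, varied widely within both groups. Cxcl9 had 10.1, 15.4 and 19.2 CPM in BLT1i mice and 10.6, 17.5 and 29.4 CPM in CDAA-HFD mice (lowest, median and highest). The highest value was that of CDAA-HFD mouse 39, and the log2 fold change of -0.24 ± 0.15 (SE) did not pass (edgeR adjusted p = 0.406). Cxcl10 had 9.39, 12.7 and 18.7 CPM in BLT1i mice and 7.98, 13.0 and 18.6 CPM in CDAA-HFD mice (lowest, median and highest), almost the same span in both groups. Its log2 fold change was 0.09 ± 0.14 (SE; edgeR adjusted p = 0.8). None of 19 tested interferon-gamma response genes passed with edgeR, DESeq2 or limma-voom, and 0 had an unadjusted edgeR p under 0.05. Their summed levels were 807 to 1292 CPM in BLT1i mice and 814 to 1341 CPM in CDAA-HFD mice. None of 19 tested NF-kappaB response genes passed with these tools either, and their median log2 fold change was -0.04. An unadjusted edgeR p under 0.05 was held by 6 of the 19, against 19.7% of all genes. These changes went both ways, as for Nfkbia (-0.14) and Nfkbiz (0.14).

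Of the monocyte attractants, Ccl2, the main ligand of Ccr2, averaged 8.2 ± 1.25 CPM in BLT1i livers and 7.92 ± 1.43 CPM in CDAA-HFD livers (SD, n = 10 each), with a 95% interval of the log2 fold change from -0.15 to 0.26. Ccl7, another ligand of Ccr2, averaged 1.77 ± 0.514 CPM in BLT1i livers and 1.51 ± 0.448 CPM in CDAA-HFD livers, with a wider interval of -0.14 to 0.59. Neither passed, and 5 of 10 BLT1i mice lay above the CDAA-HFD median for each. Among the inflammatory CC ligands, Ccl3, which macrophages make and which binds Ccr1, had 2.19, 3.5 and 4.41 CPM in BLT1i mice and 3.31, 3.92 and 5.49 CPM in CDAA-HFD mice (lowest, median and highest). Most BLT1i mice, 8 of 10, lay below the CDAA-HFD median, and the log2 fold change of -0.23 ± 0.11 (SE) did not pass (edgeR adjusted p = 0.256). Ccl4, a close relative of Ccl3, averaged 1.91 ± 0.244 CPM in BLT1i livers and 1.99 ± 0.326 CPM in CDAA-HFD livers. Ccl5, a product of T and NK cells, averaged 7.74 ± 1.75 CPM in BLT1i livers and 7.6 ± 1.36 CPM in CDAA-HFD livers. Of 12 tested T and NK cell markers 1, Cd8a, passed as higher, with summed levels of 13.3 to 27.8 CPM in BLT1i mice and 17.9 to 25.8 CPM in CDAA-HFD mice.

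The membrane-bound ligands Cxcl16 and Cx3cl1, which can be shed by the proteases Adam10 and Adam17, did not pass. Cxcl16, the ligand of Cxcr6, averaged 61.3 ± 5.42 CPM in BLT1i livers and 64.05 ± 5.01 CPM in CDAA-HFD livers (SD, n = 10 each). Cx3cl1, the ligand of Cx3cr1, had 28.1, 35.5 and 49.1 CPM in BLT1i mice and 31.4, 41.9 and 44.9 CPM in CDAA-HFD mice (lowest, median and highest), so the BLT1i mice spread beyond the CDAA-HFD mice at both ends. Its log2 fold change was -0.13 ± 0.09 (SE; edgeR adjusted p = 0.46).

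The lymphoid and dendritic ligands showed no difference past the threshold. Ccl19, a ligand of Ccr7 that draws T and dendritic cells to lymphoid tissue, averaged 3.61 ± 0.683 CPM in BLT1i livers and 3.58 ± 0.811 CPM in CDAA-HFD livers (SD, n = 10 each). Ccl21a, also a ligand of Ccr7, averaged 3.31 ± 0.734 CPM in BLT1i livers and 3.0 ± 0.878 CPM in CDAA-HFD livers, and Ccl22, a ligand of Ccr4 made by dendritic cells, 5.77 ± 1.13 CPM in BLT1i livers and 5.97 ± 1.49 CPM in CDAA-HFD livers. Xcl1, which acts on dendritic cells that bear Xcr1, averaged 0.756 ± 0.258 CPM in BLT1i livers and 0.867 ± 0.312 CPM in CDAA-HFD livers. The largest positive log2 fold change of an expressed ligand was that of Ccl24, at 0.27 ± 0.19 (SE; edgeR adjusted p = 0.459), from 0.596, 0.922 and 1.79 CPM in BLT1i mice and 0.537, 0.777 and 1.24 CPM in CDAA-HFD mice (lowest, median and highest). At a mean of 21.8 counts per mouse, counting error alone gave it a coefficient of variation of 21.4%. Ccl25, known from thymus and gut as the ligand of Ccr9, was among the steadiest, with 16.5 ± 0.985 CPM in BLT1i livers and 17.3 ± 1.25 CPM in CDAA-HFD livers. Ccl27a, a ligand of Ccr10 known from skin, averaged 3.75 ± 0.445 CPM in BLT1i livers and 3.58 ± 0.567 CPM in CDAA-HFD livers.

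Of 11 tested chemokine receptors of 17 listed, none passed as higher and 1 passed as lower in BLT1i livers. Cx3cr1, the Cx3cl1 receptor of monocytes and macrophages, had 37.002, 43.6 and 51.7 CPM in BLT1i mice and 45.7, 54.1 and 60.0 CPM in CDAA-HFD mice (lowest, median and highest). Its log2 fold change of -0.24 ± 0.06 (SE; edgeR adjusted p = 0.0189) passed with each mouse left out in turn.

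Of 5 atypical receptors, which bind or remove chemokines without G protein signalling, Ackr2 passed as higher. This scavenger of inflammatory CC ligands had 3.56, 4.58 and 6.73 CPM in BLT1i mice and 2.68, 3.47 and 4.43 CPM in CDAA-HFD mice (lowest, median and highest). The log2 fold change was 0.45 ± 0.11 (SE; edgeR adjusted p = 0.0169) and also passed with each mouse left out. Both receptor calls were lost with the macrophage score as a covariate (edgeR adjusted p = 0.072 for Cx3cr1 and 0.081 for Ackr2) and with the immediate early score (edgeR adjusted p = 0.575 for Cx3cr1 and 0.598 for Ackr2). The log2 fold changes kept their sign, at -0.23 for Cx3cr1 and 0.42 for Ackr2 with the macrophage score and at -0.17 for Cx3cr1 and 0.32 for Ackr2 with the immediate early score. Most calls over all genes were lost too. Without a covariate 511 genes passed as higher and 277 as lower. With the macrophage score 246 and 82 passed, and with the immediate early score 54 and 6. The loss is thus not particular to these 2 receptors. Ccr2 did not pass, at 36.4 ± 3.78 CPM in BLT1i livers and 37.6 ± 4.19 CPM in CDAA-HFD livers (SD, n = 10 each), nor did Cxcr2 at 1.23 ± 0.269 CPM in BLT1i livers and 1.61 ± 0.449 CPM in CDAA-HFD livers (edgeR adjusted p = 0.17). None of 7 chemokine sheddases and proteases passed with edgeR, DESeq2 or limma-voom, and 0 had an unadjusted edgeR p under 0.05. The platelet chemokines Pf4 and Ppbp, whose symbols fall outside the rule, did not pass, nor did Ltb4r1, at 0.546 ± 0.148 CPM in BLT1i livers and 0.601 ± 0.164 CPM in CDAA-HFD livers.

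**Figure D3:**
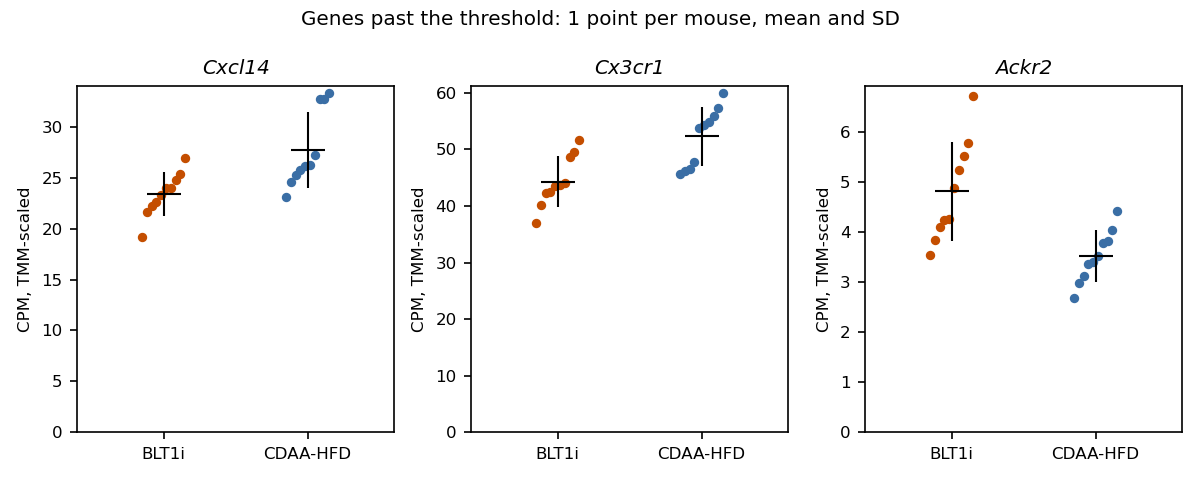
CPM of the ligand Cxcl14, the receptor Cx3cr1 and the atypical receptor Ackr2, 1 point per mouse with the mean ± SD of 10 mice (black), BLT1i left of CDAA-HFD, each axis starting at 0. The first 2 genes are lower and Ackr2 is higher in BLT1i livers, with overlap between the groups in each panel.

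Many ligands covaried across mice. Group means were subtracted from the log2 CPM, so that these relations are among mice of the same group, and Pearson's r over the 20 mice was taken for all 253 pairs of the 23 expressed ligands. Of these, 21 pairs, or 8.3%, had r of at least 0.6, against 1.67% of all pairs of tested genes. A single pair had r of at most -0.6, against 1.36% of all pairs at that limit. The r was above 0 in 70.4% of ligand pairs, with a median of 0.18, and in 49.7% of all pairs, with a median of -0.002. By permutation within groups, adjusted by Benjamini-Hochberg over the 253 pairs, 18 pairs passed, 17 of them positive. Over the 10 mice of 1 group such values are more frequent among all genes. In BLT1i mice alone 51 ligand pairs (20.2%) reached r of 0.6, against 5.58% of all pairs, and in CDAA-HFD mice alone 26 (10.3%), against 5.75% of all pairs; whether the groups differ in this was not tested.

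**Figure D4:**
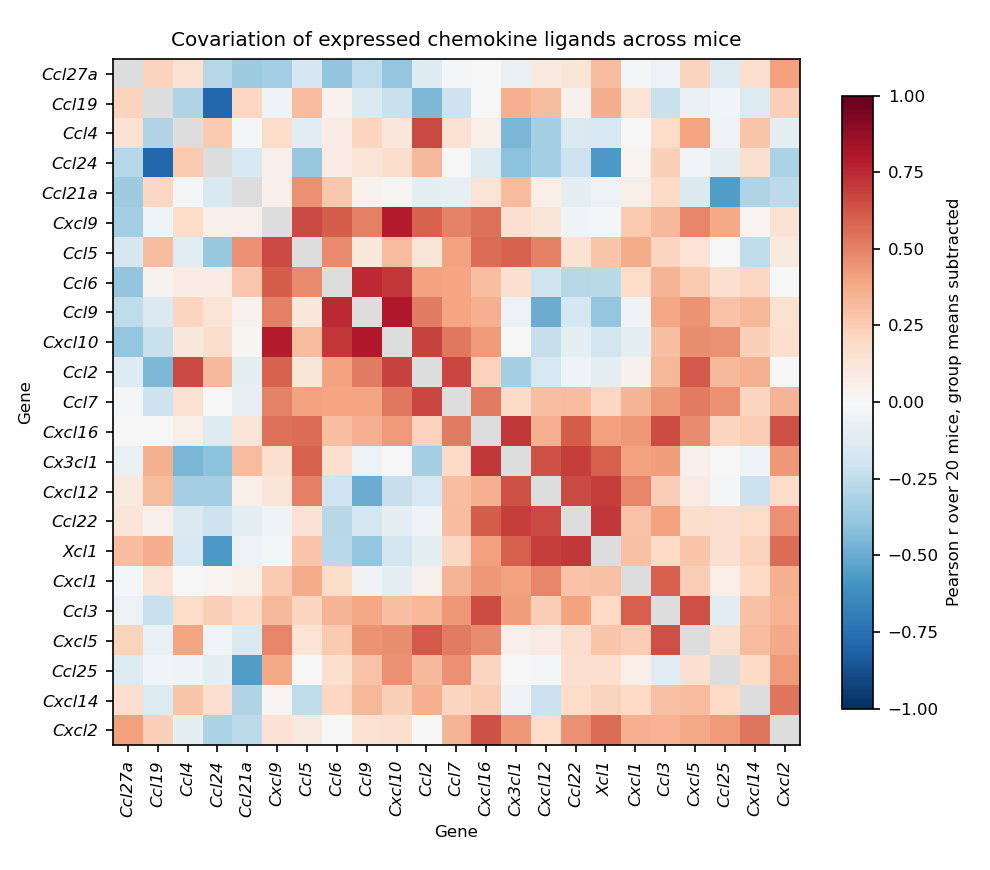
Pearson r over 20 mice, with group means subtracted, for each pair of the 23 expressed chemokine ligands, ordered by average-linkage clustering (red positive, blue negative, grey the diagonal). A block of Ccl6, Ccl9, Cxcl9, Cxcl10 and Ccl2 and a block of Cxcl16, Cx3cl1, Cxcl12, Ccl22 and Xcl1 stand out in red, and the pair Ccl19 and Ccl24 (r = -0.79) in dark blue.

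The highest r joined the interferon-induced ligands and the myeloid ligands. Ccl9 and Cxcl10 had r = 0.80 and rho = 0.80 (permutation p = 5e-05, adjusted p = 0.00632), with 0.84 in BLT1i mice alone, 0.77 in CDAA-HFD mice alone and 0.77 without the 2 mice farthest from the median of Ccl9. In both groups the mice with the highest Cxcl10, BLT1i mouse 80 with 18.7 CPM and CDAA-HFD mouse 39 with 18.6 CPM, were high in Ccl9 too, at 105.9 and 126.8 CPM. Cxcl9 and Cxcl10 had r = 0.79 and rho = 0.74 (permutation p = 0.00022, adjusted p = 0.0139), and 0.65 without the 2 farthest mice. Ccl9 and Ccl6 had r = 0.74 and rho = 0.70 (permutation p = 0.00013, adjusted p = 0.011), and 0.71 without the 2 farthest mice, but 0.47 once the pan-macrophage score was regressed out. Ccl6 and Cxcl10 had r = 0.71 and rho = 0.63 (permutation p = 0.00094, adjusted p = 0.0275), and 0.48 with that score regressed out. The monocyte attractant Ccl2 was joined to Cxcl10 (r = 0.67, rho = 0.68, permutation p = 0.00203, adjusted p = 0.037) and to Ccl7 (r = 0.67, rho = 0.64, permutation p = 0.00205, adjusted p = 0.037), with 0.53 and 0.58 without the 2 farthest mice.

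A second set joined Cxcl16, Cx3cl1, Cxcl12, Ccl22 and Xcl1. Ccl22 and Xcl1 had r = 0.71 and rho = 0.72 (permutation p = 0.00064, adjusted p = 0.027), Cxcl16 and Cx3cl1 r = 0.71 and rho = 0.69 (permutation p = 0.00098, adjusted p = 0.0275), and Cx3cl1 and Ccl22 r = 0.69 and rho = 0.74 (permutation p = 0.00059, adjusted p = 0.027). Cxcl12 and Xcl1 had r = 0.69 and rho = 0.67 (permutation p = 0.00162, adjusted p = 0.0342). Without the 2 farthest mice these 4 had r = 0.64, 0.71, 0.66 and 0.72, in the order given. Among weaker pairs, the relations of Cxcl16 with Ccl3 (r = 0.65), with Cxcl2 (0.64) and with Ccl22 (0.61) and of Ccl3 with Cxcl5 (0.64) rested in part on 2 mice, without which they were 0.44, 0.42, 0.35 and 0.43. Their permutation p ran from 0.00094 to 0.00607, and Cxcl16 with Ccl22 did not pass after adjustment (adjusted p = 0.0698). Xcl1 has a mean of 18.7 counts per mouse, so counting error (23.1% of its mean) is a large part of its spread.

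The lowest r was that of Ccl19 and Ccl24, at -0.79 with rho = -0.77 (permutation p = 4e-05, adjusted p = 0.00632). It was -0.72 in BLT1i mice alone, -0.89 in CDAA-HFD mice alone and -0.75 without the 2 farthest mice. Ccl24 has a mean of 21.8 counts per mouse, so counting error (21.4% of its mean) is a large part of its spread. The size of this r is therefore uncertain, and the effect of counting error on it was not tested. BLT1i mouse 72 had 2.64 CPM of Ccl19 and 1.79 CPM of Ccl24, whereas BLT1i mouse 77 had 4.44 CPM of Ccl19 and 0.596 CPM of Ccl24. In CDAA-HFD mice, mouse 32 had 2.26 CPM of Ccl19 and 1.24 CPM of Ccl24, against 4.21 CPM of Ccl19 and 0.537 CPM of Ccl24 in mouse 33. The next lowest pairs, Ccl24 with Xcl1 (r = -0.57, rho = -0.54, permutation p = 0.00936, adjusted p = 0.0947) and Ccl25 with Ccl21a (r = -0.55, rho = -0.58, permutation p = 0.017, adjusted p = 0.144), did not pass. The 7 ligands Cxcl14, Cxcl1, Ccl25, Ccl27a, Ccl21a, Ccl19 and Ccl24 had no pair at r of 0.6 or more.

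**Figure D5:**
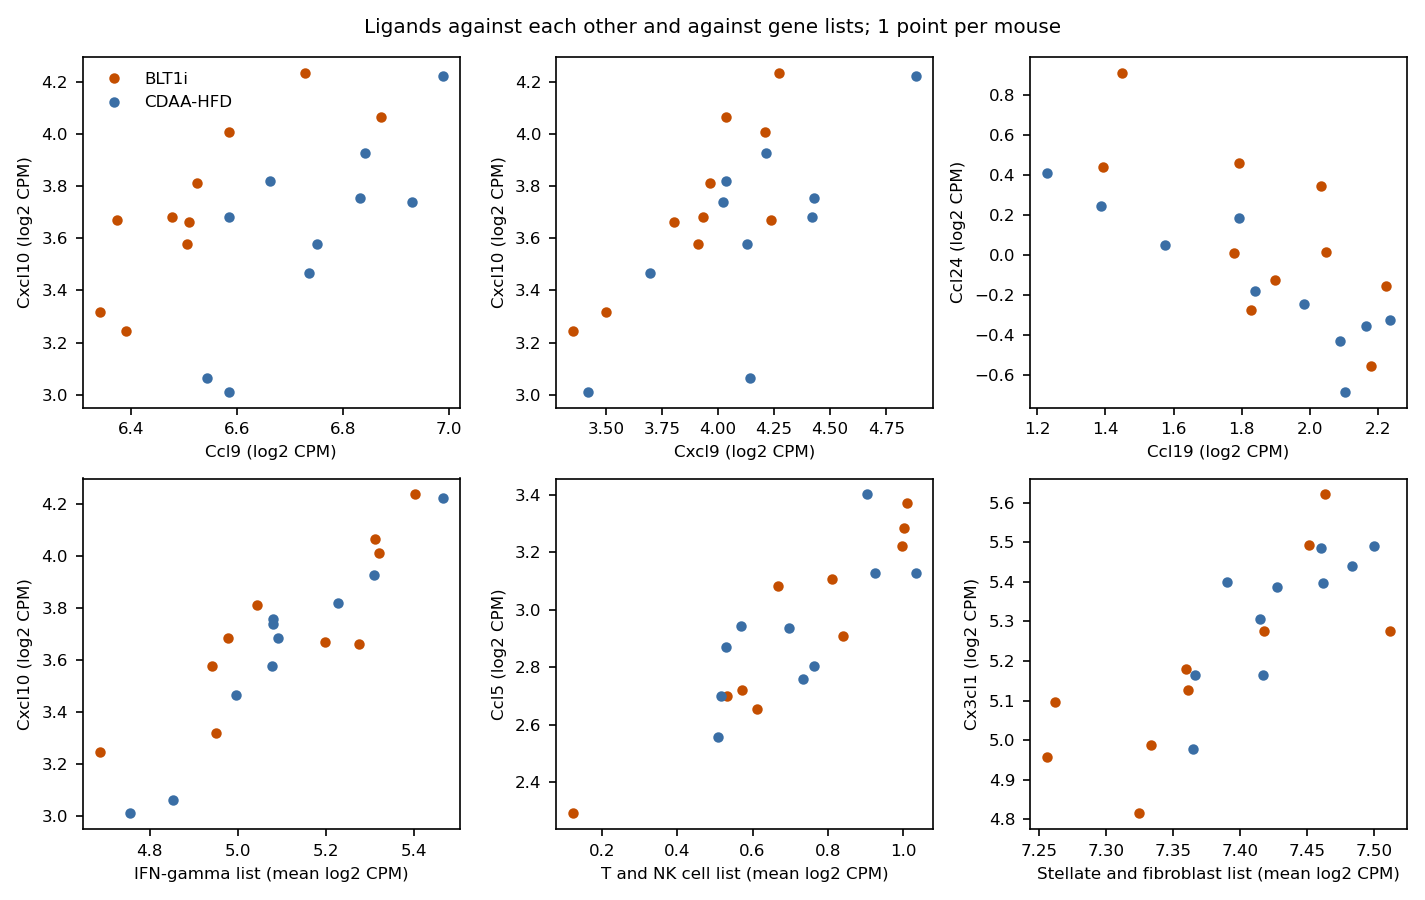
Log2 CPM of pairs of ligands (upper row) and of a ligand against the mean log2 CPM of a gene list (lower row), 1 point per mouse, BLT1i in orange and CDAA-HFD in blue. Mice of both groups trend in the same direction in each panel, although the BLT1i mice lie lower in Ccl9. The trend falls for Ccl19 and Ccl24 (r = -0.79) and rises in the others, with r from 0.77 to 0.91. These r were taken after subtracting group means, whereas the points are plotted without that subtraction.

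Several ligand genes lie side by side, and position was set against these relations, a comparison added after seeing the data. Ccl3, Ccl4, Ccl5, Ccl6 and Ccl9 form 1 group on chromosome 11, Ccl2 and Ccl7 another, Cxcl9 and Cxcl10 lie together on chromosome 5 apart from Cxcl1, Cxcl2 and Cxcl5, Ccl22 and Cx3cl1 lie together on chromosome 8, and Ccl19, Ccl21a and Ccl27a on chromosome 4. Of the 19 pairs within such a group 4 (21.1%) had r of at least 0.6, against 17 of 234 (7.26%) between groups, with median r of 0.25 and 0.165. The 4 pairs were Cxcl9 with Cxcl10, Ccl9 with Ccl6, Cx3cl1 with Ccl22 and Ccl2 with Ccl7. Of the 8 pairs of directly adjacent genes 3 (37.5%) had r of at least 0.6, with a median r of 0.35 and a lowest of 0.10. Some other pairs within a group had low or negative r. Examples are the adjacent Ccl3 and Ccl4 (r = 0.18) and the non-adjacent Ccl27a and Ccl21a (r = -0.36, the lowest of the 19). Ccl9 and Cxcl10, the pair with the highest r, lie on different chromosomes.

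The promoters of the genes of the 3 highest pairs are shown because these genes moved together. They are from RefSeq on GRCm38.p6, all on the minus strand, at chr5:92348840-92349139 for Cxcl10, chr5:92328030-92328329 for Cxcl9, chr11:83578587-83578886 for Ccl9 and chr11:83593038-83593337 for Ccl6, each 5′ to 3′ on the strand of its gene from 250 bases before to 50 after the start. Capitals mark matches on either strand to the same interferon response element and to the kappaB element (GGG, any 3 bases, then TTCC), the site of NF-kappaB. A stretch of 10 bases cannot match both.
Cxcl10: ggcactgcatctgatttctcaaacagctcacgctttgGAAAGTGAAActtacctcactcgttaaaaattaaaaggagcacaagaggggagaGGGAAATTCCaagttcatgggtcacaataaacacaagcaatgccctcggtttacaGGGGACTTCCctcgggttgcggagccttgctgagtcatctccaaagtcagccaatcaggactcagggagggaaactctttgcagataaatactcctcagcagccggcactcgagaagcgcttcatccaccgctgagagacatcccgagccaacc
Cxcl9: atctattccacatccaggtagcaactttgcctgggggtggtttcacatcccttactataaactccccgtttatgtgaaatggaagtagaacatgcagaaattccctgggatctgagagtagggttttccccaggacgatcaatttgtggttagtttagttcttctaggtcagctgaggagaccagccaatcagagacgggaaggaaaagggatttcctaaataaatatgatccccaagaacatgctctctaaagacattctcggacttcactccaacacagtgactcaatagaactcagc
Ccl9: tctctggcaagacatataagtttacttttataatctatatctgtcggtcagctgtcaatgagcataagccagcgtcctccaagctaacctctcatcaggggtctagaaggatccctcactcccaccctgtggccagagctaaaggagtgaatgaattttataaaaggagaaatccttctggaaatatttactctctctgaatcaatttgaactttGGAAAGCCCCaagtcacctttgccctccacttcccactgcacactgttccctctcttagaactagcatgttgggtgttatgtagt
Ccl6: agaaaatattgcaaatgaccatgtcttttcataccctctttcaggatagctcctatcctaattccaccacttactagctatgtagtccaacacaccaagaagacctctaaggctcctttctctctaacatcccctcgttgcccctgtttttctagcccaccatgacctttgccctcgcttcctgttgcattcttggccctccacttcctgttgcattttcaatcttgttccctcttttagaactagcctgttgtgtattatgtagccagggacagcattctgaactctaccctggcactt

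Cxcl10 held 1 interferon response match and 2 kappaB matches, and Ccl9 held 1 kappaB match, which reads on the opposite strand. Cxcl9 and Ccl6 held neither in this window. Of the 27 ligand genes found in the promoter table (16 of the expressed ones), some have several promoters, 33 in all. Of these 33 promoters 7 held the kappaB letters, namely those of Ccl1, Ccl20, Ccl9, Cxcl1, Cxcl10, Cxcl2 and Cxcl3, against 5.56% of all 32817 promoters. The interferon response letters were in 3 of the 33, those of Ccl19, Cxcl10 and Cxcl14, against 3.43% of all. The longest run of bases that Cxcl9 and Cxcl10 share in these windows was CAGCCAATCAG (11 bases), and that of Ccl9 and Ccl6 was GCCCTCCACTTCC (13 bases).

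Ligands were also set against the mean log2 CPM of 15 lists of response genes and cell type markers, with group means subtracted. None of these lists holds a ligand found by the symbol rule, but the platelet list holds the chemokines Pf4 and Ppbp. These 345 relations were added after seeing the data, and 21 passed by permutation within groups after Benjamini-Hochberg adjustment. Cxcl10 followed the interferon-gamma response list (r = 0.91, rho = 0.88, permutation p = 1e-05, the smallest these resamples can give, adjusted p = 0.00259), as did Cxcl9 (r = 0.76, rho = 0.69, permutation p = 0.00023, adjusted p = 0.00997) and Ccl9 (r = 0.68, rho = 0.68, permutation p = 0.00123, adjusted p = 0.0283). Without the 2 farthest mice these were 0.89, 0.63 and 0.62. Ccl5 followed the T and NK cell markers (r = 0.88, rho = 0.85, permutation p = 2e-05, adjusted p = 0.00259), and was 0.84 without the 2 farthest mice. Ccl6 followed the pan-macrophage markers (r = 0.79, rho = 0.78, permutation p = 3e-05, adjusted p = 0.00259), and was 0.72 without the 2 farthest mice.

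Cx3cl1 followed both the cholangiocyte markers (r = 0.77, rho = 0.79, permutation p = 0.00019, adjusted p = 0.00997) and the stellate cell and fibroblast markers (r = 0.77, rho = 0.85, permutation p = 0.00026, adjusted p = 0.00997), with 0.80 and 0.82 without the 2 farthest mice. It also fell as the hepatocyte markers rose. BLT1i mouse 74 had 45.0 CPM of Cx3cl1 at a hepatocyte mean of 11.59, and BLT1i mouse 79 had 28.1 CPM at 11.87. In CDAA-HFD mice 31 and 39, Cx3cl1 was 44.7 and 35.8 CPM, at hepatocyte means of 11.67 and 11.82. Whether Cx3cl1 follows any of these cell types in particular was not tested. Xcl1 followed the dendritic cell markers (r = 0.76, rho = 0.75, permutation p = 0.00025, adjusted p = 0.00997), a list that holds its receptor Xcr1, and Cxcl12 the stellate cell and fibroblast markers (r = 0.66, rho = 0.68, permutation p = 0.00058, adjusted p = 0.0167), with 0.68 and 0.63 without the 2 farthest mice. The relation of Cxcl1 with the immediate early genes within groups did not pass (r = 0.46, rho = 0.47, permutation p = 0.0601, adjusted p = 0.256), and was 0.51 without the 2 farthest mice. Of 20 pairs of a ligand and its receptor none passed on r, the highest being Cxcl12 with Ackr3 (r = 0.60, rho = 0.74, permutation p of r = 0.00517, adjusted p = 0.075; adjusted p of rho = 0.0082). On rho that pair passed, and so did Xcl1 with Xcr1 (r = 0.58, rho = 0.60) and Ccl19 with Ccr7 (r = 0.45, rho = 0.62), both at an adjusted p of rho of 0.0471, just inside the threshold. Cxcl9 and Cxcl10 with Cxcr3 had r = 0.05 and -0.14, and Ccl2 with Ccr2 had -0.06.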

How the data were processed

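Liver RNA of 20 mice was sequenced, 2 lanes per mouse in the labels and 1 column per mouse in the tables, with n = 10 mice per group. How lanes were merged is not stated. Per the labels' protocols a stranded kit for total RNA with ribosomal RNA removal was used, although the molecule is given as polyA RNA. The genome build was GRCm39 per the submitters' processing notes. Aligner, counter and the handling of multi-mapped reads were not given in the sources used here. Raw counts per coding gene were deposited by the authors and used for all tests. The authors also deposited FPKM rounded to whole numbers, treated as a score and used for levels per length and 1 alternative. Of 21500 identifiers 21457 matched a name.

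Genes kept by filterByExpr (13993) got TMM factors and a two-sided, robust quasi-likelihood F-test without covariates (edgeR 4.0.16, R 4.3.3), with Benjamini-Hochberg adjustment over all of them and a threshold of 0.05. SE is the log2 fold change over the square root of F. Genes under 1 CPM carry wide counting error at this depth. Log2 CPM had a prior count of 2. Correlations used 100000 two-sided permutations within groups. The test scripts were checked on simulated data. Alternatives were other scalings, filters, thresholds and covariates, DESeq2 1.42.0, limma 3.58.1, sva 3.50.0 and each mouse left out. Named genes were those past the threshold, the highest of each role (up to 3), the 5 largest changes each way, the members of the 10 highest and 3 lowest pairs, the 2 on each side of 0.5 CPM, their receptors, Pf4, Ppbp, Ltb4r1, Alb and called genes of the receptor and protease lists; the pairs that rest on 2 mice, the neighbouring pair Ccl3 and Ccl4 and the mice named were chosen after their values were seen. The ligands and the lists were chosen with earlier results of these data known. Cxcl11 was not analysed here. One further gene of the receptor list is not reported here.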

Additional observations from a re-analysis of the deposited data

Results flagged for a closer look

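Cxcl16, the membrane-bound ligand of Cxcr6, was high in CDAA-HFD mouse 36, at 76.6 CPM (76.584), while the next highest mouse of that group had 65.3 CPM. The gap was 0.595 of the range of the group, above Dixon's 95% critical value for 10 mice. It was the single such value among 48 sets of 10 mice examined, where chance gives about 1 in 20. The same mouse had the highest level in its group of 8 other expressed ligands, Cxcl14, Ccl25, Ccl22, Ccl3, Cxcl5, Cxcl2, Ccl4 and Ccl7.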

How the results depend on the processing

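Of the 24 tested ligands 1 passed. With upper-quartile scaling, library totals alone, DESeq2 or limma-trend on rounded FPKM plus 1 the count was 2 each (Cxcl14 and Ccl9), at a threshold of 0.1 it was 3 and at 0.01 it was 0. With the immediate early score or the pan-macrophage score as a covariate it was 0 each, as was the count of 2 receptor genes (Cx3cr1 and Ackr2), which was also 0 with limma-trend on rounded FPKM. For the receptors these settings were added after seeing the data. Over all genes 54 passed as higher and 6 as lower with the immediate early covariate, and 246 and 82 with the pan-macrophage covariate. With each mouse left out in turn the ligand count ran from 0 to 3. Pairs with r of at least 0.6 numbered 21, and 51 in BLT1i mice alone; at limits of 0.5 and 0.7 there were 34 and 6. The number of expressed ligands ran from 21 to 25 with other CPM limits, and the cause of these shifts was not tested.

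The sign of the log2 fold change turned for 10 ligands, none with a call. With the immediate early covariate it became -0.021 for Cxcl1, 0.023 for Ccl25, -0.13 for Ccl5, 0.080 for Ccl22, -0.29 for Ccl21a, -0.098 for Cxcl2 and 0.20 for Xcl1. With the pan-macrophage covariate it became 0.0010 for Cxcl16. With limma-voom it was -0.0033 for Ccl5, 0.038 for Ccl22 and -0.025 for Ccl19, with limma-trend -0.018 for Ccl5, and with 1 surrogate variable -0.050 for Cxcl5. With upper-quartile scaling it was -0.00062 for Ccl19 and -0.0017 for Cxcl5, and with library totals alone -0.017 and -0.020, in that order. With single mice left out it ran from -0.027 to 0.091 for Ccl5, -0.10 to 0.050 for Ccl22, -0.046 to 0.065 for Ccl19 and -0.065 to 0.097 for Cxcl5. For Ccl9 the log2 fold change ran from -0.24 to -0.10 and for Ccl6 from -0.29 to -0.06 over the alternatives that keep all mice. No paired analysis was possible because the groups share no replicate numbers.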
